A study of Mus musculus with 6 samples.

Results

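The genes described here are those encoded by mitochondrial DNA: all genes of the deposited table whose name starts with mt-, which are 37 of 55414 genes. They comprise 13 protein-coding genes, 2 ribosomal RNA genes and 22 transfer RNA genes, the full set annotated on the mouse mitochondrial chromosome in GENCODE M21 (mm10). They were measured by RNA sequencing in neurons of male mice, taken from the medial mammillary nucleus of the hypothalamus. The 6 libraries form 2 groups by genotype label, PV-positive (replicates 6, 7 and 8; PV is parvalbumin, a calcium-binding protein) and Drd2-positive (replicates 1, 2 and 3; Drd2 is the D2 dopamine receptor). Cells of both groups came from papain-treated slices, were picked by their fluorescence through glass electrodes, and yielded RNA for a SMARTer mRNA library kit. The sources used here do not give the alleles that drive the fluorescence, the age of the mice, or how many cells or mice stand behind a library. Per the series design, each group has 3 biological replicates. Nothing in the labels says which animals they came from, so p-values measure only the spread between these libraries.

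Mitochondrial DNA is a small circular genome kept inside the organelle. It is transcribed from both strands as long precursors, from which most messenger and ribosomal RNAs are released by cutting out the transfer RNAs that lie between them. Its protein-coding genes all encode core subunits of oxidative phosphorylation: of complex I (NADH dehydrogenase), complex III (cytochrome bc1), complex IV (cytochrome c oxidase) and complex V (ATP synthase). The ribosomal and transfer RNAs serve the organelle's own translation. Neurons depend heavily on oxidative phosphorylation for ion pumping and synaptic transmission.

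Levels are in FPKM, that is, fragments scaled to a library of 1e6 and a gene of 1 kilobase, so levels of different genes are compared per length. The libraries had denominators of 23.8 to 33.7 in units of 1e6 fragments, recovered from the spacing of low values, and 8610 to 12398 genes at 1 FPKM or more, fewest in PV replicate 7. Pvalb had 349, 482 and 563 FPKM in PV, against 10.4, 22.5 and 99.5 FPKM in Drd2; in all lists of values the order is PV replicates 6, 7, 8 and Drd2 replicates 1, 2, 3. Drd2 was at 0.0132 FPKM in PV replicate 6, had no reads in the other PV libraries, and reached 42.7, 55.0 and 7.74 FPKM in the Drd2 group. Within its group, Drd2 replicate 3 was thus highest in Pvalb and lowest in Drd2. PV was compared with Drd2 by limma on log2(FPKM + 1) over the 11478 genes that reached 1 FPKM in 3 or more libraries, with Benjamini-Hochberg adjustment over all of them and a threshold of 0.05. On this scale the folds of weakly expressed genes are understated. In bulk libraries fewer cells of a type and less RNA per cell cannot be told apart, so a difference in FPKM is one per library.

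Part of the mitochondrial genome has near-identical annotated copies in the nucleus. In the annotated transcripts, 7 pseudogenes on chromosome 1 (mm10, minus strand, chr1:24611535-24616197) matched protein-coding mitochondrial genes at 99.7% to 100% identity. The matches ran from the end of mt-Co1 to the middle of mt-Nd4. Of the genes in between, mt-Atp8 and the tRNA genes had no annotated copy of their own. The starts of neighbouring matches lay equally far apart on both chromosomes in 5 of 6 pairs, and in the sixth the distances were 418 bases in mitochondrial DNA and 419 on chromosome 1. A second set of pseudogenes on chromosome 2 (Gm13339, Gm13340 and Gm13341) matched mt-Nd2, mt-Co1 and mt-Co2 at 95.9% to 97.6%, and Gm4076 on chromosome 13 matched mt-Nd5 at 95.2%. Cytochrome oxidase subunit 2 shows both kinds of copy. The first 60 bases of mt-Co2 (chrM:7013-7072, plus strand) are given with those of Gm28661 (chr1:24615506-24615565, minus strand), which has 0 differences, and of Gm13341 (chr2:22587903-22587962, minus strand), which has 2, in capitals.
mt-Co2: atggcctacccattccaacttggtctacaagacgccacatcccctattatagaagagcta
Gm28661: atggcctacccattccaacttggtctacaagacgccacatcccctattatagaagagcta
Gm13341: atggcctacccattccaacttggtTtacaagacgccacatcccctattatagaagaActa

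The match to the annotated chromosome 1 copy begins within mt-Co1 and ends within mt-Nd4. The next pair of sequences shows these borders of the match, on the plus strand. They are mt-Co1 at chrM:6360-6419, where the match begins at base 10 of Gm29216, and mt-Nd4 at chrM:11013-11072, where Gm28439 ends. Within the match, bases shared with the copy are in capitals. Bases outside the match are in lower case and were not compared with the copy.
mt-Co1: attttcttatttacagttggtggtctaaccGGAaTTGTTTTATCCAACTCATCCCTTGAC
mt-Nd4: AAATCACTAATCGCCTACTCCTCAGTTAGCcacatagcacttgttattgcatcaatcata

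The share of each gene's 50-base stretches that also occurs in an annotated transcript outside mitochondrial DNA was used as a measure of this overlap. It was 100% for mt-Co2, 99.9% for mt-Co3, 99.5% for mt-Atp6, 98.8% for mt-Nd4l and 98.0% for mt-Nd3, against 62.2% for mt-Nd4 and 51.1% for mt-Co1. For mt-Nd2, mt-Nd5 and mt-Rnr2 it was 8.19%, 7.61% and 1.04%, and it was 0% for mt-Nd1, mt-Nd6, mt-Cytb, mt-Rnr1 and mt-Atp8. mt-Atp8 lies between mt-Co2 and mt-Atp6, and the starts of their copies are 914 bases apart on chromosome 1, as in mitochondrial DNA. There is no annotated gene for the stretch between these copies. The end of mt-Atp8 (to chrM:7969) overlaps the start of mt-Atp6 (chrM:7927), which its chromosome 1 copy matches from base 1. That overlap is shorter than 50 bases, so the measure cannot count it and the 0% of mt-Atp8 does not mean that no base is shared. Only annotated transcripts were searched, so a copy outside them would not have been found.

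By level, the protein-coding genes formed a low and a high set. The 6 genes from mt-Co2 to mt-Nd4l averaged 9.92 to 64.7 FPKM over the 6 libraries. They are the 5 with almost all of their 50-base stretches shared and mt-Atp8, which shares no whole 50-base stretch. The other 7 averaged 1185 to 8093 FPKM, among them mt-Co1 and mt-Nd4, whose sequence is shared in part. The 2 sets were made with both the sequences and the levels known, and the sources used here do not say how reads matching several places were treated, so the part of shared sequence in these levels was not tested.

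**Figure D1:**
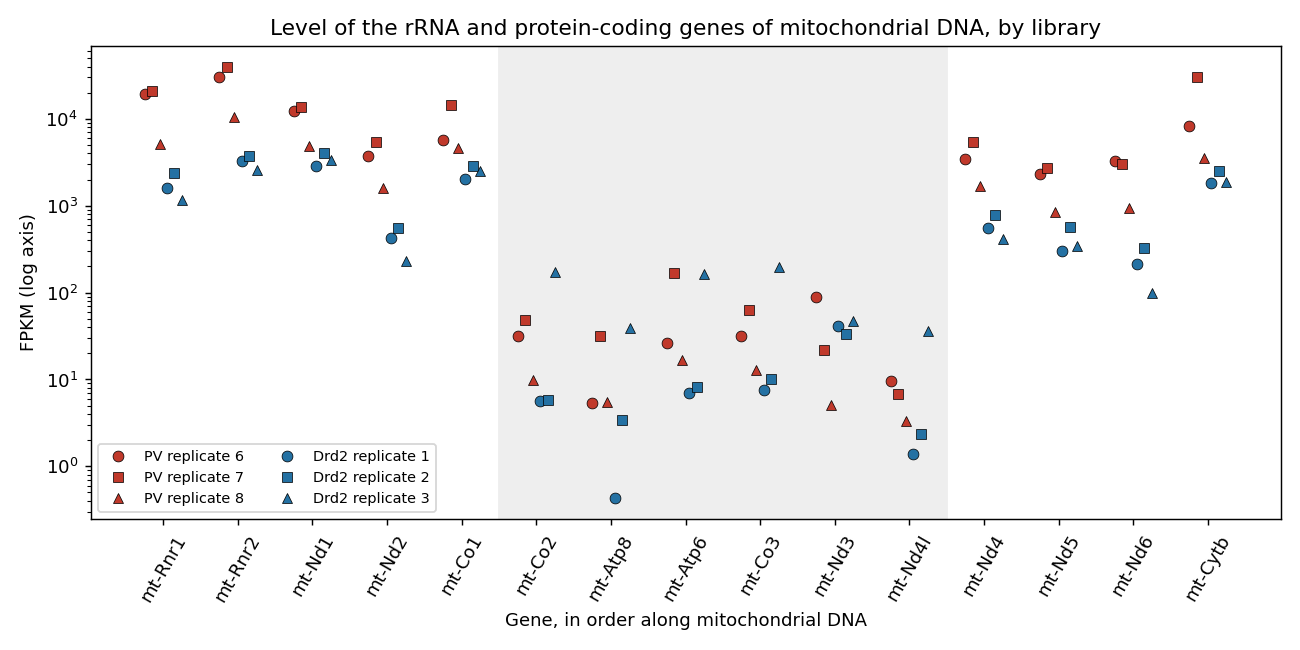
FPKM (log axis) of the 2 rRNA and 13 protein-coding genes in their order along mitochondrial DNA, 1 point per library, PV in red and Drd2 in blue, with 1 symbol shape per replicate; the grey band spans mt-Co2 to mt-Nd4l. Outside the band all 3 PV points lie above all 3 Drd2 points for each of the 9 genes, as in 5.83% of all tested genes. Inside the band Drd2 replicate 3 is the highest library for mt-Co2, mt-Atp8, mt-Co3 and mt-Nd4l.

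The ribosomal RNAs were on average the most abundant members in PV. mt-Rnr1 (ENSMUSG00000064337, chrM:70-1024), the RNA of the small mitochondrial ribosomal subunit, was at 19092, 20983 and 5096 FPKM in PV and at 1597, 2379 and 1172 FPKM in Drd2. Every PV library lay above every Drd2 library, with PV replicate 8 the lowest of its group. The log2 fold, PV minus Drd2, was 2.95 ± 0.59 (SE; limma adjusted p = 0.0722). mt-Rnr2 (ENSMUSG00000064339, chrM:1094-2675), the RNA of the large subunit, was at 30417, 39080 and 10642 FPKM in PV and at 3282, 3755 and 2597 FPKM in Drd2. It ranked first of the 15 rRNA and protein-coding members in every PV library and in Drd2 replicate 1, and second, after mt-Nd1, in Drd2 replicates 2 and 3. Its log2 fold was 2.88 ± 0.54 (SE; limma adjusted p = 0.0587). With quantile normalization the log2 folds were 1.62 for mt-Rnr1 and 0.92 for mt-Rnr2. Neither rRNA passed the threshold, although the groups did not overlap.

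Of the 7 complex I genes, 5 lay outside the stretch from mt-Co2 to mt-Nd4l. For each of these every PV library lay above every Drd2 library, as in 5.83% of all tested genes. mt-Nd6 (ENSMUSG00000064368, chrM:13552-14070) is the one protein-coding gene transcribed from the minus strand. It was at 3312, 3001 and 939 FPKM in PV and at 211, 327 and 100.1 FPKM in Drd2, so its lowest PV library was above its highest Drd2 library. The log2 fold of 3.46 ± 0.59 (SE) was the highest among the protein-coding members, and the limma adjusted p was 0.0501. Whether the counting used strand is not given, so plus-strand reads within mt-Nd6 cannot be told apart from its own. mt-Nd2 (ENSMUSG00000064345, chrM:3914-4951), a membrane subunit of complex I, was at 3720, 5407 and 1590.4 FPKM in PV and at 429, 557 and 232 FPKM in Drd2. PV replicate 8 and Drd2 replicate 3 were the lowest of their groups, as they were for mt-Nd6, and the groups did not overlap. The log2 fold of mt-Nd2 was 3.05 ± 0.53 (SE), with the same limma adjusted p of 0.0501.

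The other membrane subunits had smaller folds. mt-Nd4 (chrM:10167-11544) was at 3413, 5363 and 1692 FPKM in PV and at 561, 779.6 and 419 FPKM in Drd2, which gave 2.47 ± 0.48 on the log2 scale (SE; limma adjusted p = 0.0705). mt-Nd5 (chrM:11742-13565) was at 2347, 2696 and 852 FPKM in PV and at 300.4, 570.2 and 341 FPKM in Drd2, which gave 2.17 ± 0.50 (SE; limma adjusted p = 0.115). mt-Nd1 (chrM:2751-3707) follows the rRNAs on the precursor and was the most abundant member in Drd2 replicates 2 and 3. It was at 12296, 13762 and 4916 FPKM in PV and at 2836, 4028 and 3343 FPKM in Drd2, and the gap between PV replicate 8 and Drd2 replicate 2 was narrow. Its log2 fold was 1.48 ± 0.48 (SE; limma adjusted p = 0.234), the lowest of the 9 rRNA and protein-coding members outside the stretch from mt-Co2 to mt-Nd4l. With quantile normalization it turned to -0.56.

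The 2 remaining complex I genes, mt-Nd3 and mt-Nd4l, lie in that stretch and overlapped between the groups. mt-Nd3 (chrM:9459-9806) was at 89.2, 22.0 and 5.07 FPKM in PV and at 41.0, 33.2 and 47.3 FPKM in Drd2. It was the one tested member with a fold below 0, of -0.82 ± 0.83 (SE; limma adjusted p = 0.725), and PV replicate 6 was its highest library. mt-Nd4l (chrM:9877-10173) was at 9.60, 6.81 and 3.32 FPKM in PV and at 1.40, 2.36 and 36.0 FPKM in Drd2, which gave 0.09 ± 1.01 on the log2 scale (SE; limma adjusted p = 0.980).

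Complex III has a single mitochondrial gene, mt-Cytb (ENSMUSG00000064370, chrM:14145-15288), which encodes cytochrome b. It was at 8212, 30534 and 3551 FPKM in PV and at 1828, 2539 and 1895 FPKM in Drd2. The groups did not overlap, but PV replicate 7 stood far above the other PV libraries, where mt-Cytb held 21.8% of the members' FPKM against 9.04% and 10.0% in PV replicates 6 and 8. The log2 fold was 2.22 ± 0.69 (SE; limma adjusted p = 0.215), and it was 1.39 without PV replicate 7 and 0.61 with quantile normalization.

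Of the complex IV genes, mt-Co1 (ENSMUSG00000064351, chrM:5328-6872), the catalytic subunit of cytochrome oxidase, was at 5780, 14489 and 4638 FPKM in PV and at 2021, 2887 and 2485 FPKM in Drd2. The groups did not overlap, and the log2 fold was 1.58 ± 0.49 (SE; limma adjusted p = 0.214), which quantile normalization brought to 0.14. mt-Co2 (chrM:7013-7696), the subunit that receives electrons from cytochrome c, was at 31.3, 47.8 and 9.95 FPKM in PV and at 5.63, 5.75 and 171 FPKM in Drd2. mt-Co3 (chrM:8607-9390) was at 31.4, 62.5 and 12.8 FPKM in PV and at 7.56, 10.1 and 199 FPKM in Drd2. For both, Drd2 replicate 3 was the highest of all libraries and the other Drd2 libraries were the lowest. Their log2 folds were 0.39 ± 1.17 and 0.19 ± 1.10 (SE; limma adjusted p = 0.914 and 0.960).

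For the complex V genes a library of each group stood out. mt-Atp6 (chrM:7927-8607), part of the proton channel of ATP synthase, was at 26.5, 168 and 16.8 FPKM in PV and at 7.01, 8.27 and 162 FPKM in Drd2. mt-Atp8 (chrM:7766-7969), a small membrane subunit whose gene overlaps that of mt-Atp6, was at 5.43, 31.5 and 5.53 FPKM in PV and at 0.436, 3.43 and 38.9 FPKM in Drd2. PV replicate 7 and Drd2 replicate 3 were the highest libraries for both genes. Their log2 folds were 0.92 ± 1.19 and 0.81 ± 1.17 (SE; limma adjusted p = 0.782 and 0.811).

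Drd2 replicate 3 thus stood apart from the rest of its group in the stretch from mt-Co2 to mt-Nd4l. Against the mean of Drd2 replicates 1 and 2 it held 30.1 times the FPKM of mt-Co2, 22.5 times that of mt-Co3, 21.2 times that of mt-Atp6, 20.1 times that of mt-Atp8 and 19.2 times that of mt-Nd4l, but 1.27 times that of mt-Nd3. The 9 rRNA and protein-coding members outside the stretch were at 0.373 to 1.01 times that mean. All 7 chromosome 1 copies were high in Drd2 replicate 3: Gm28661 was at 20.4 times, Gm10925 at 22.2 times, Gm28437 at 20.8 times and Gm10222 at 9.15 times the mean of the other Drd2 libraries, beside mt-Co2, mt-Atp6, mt-Co3 and mt-Nd4l, which were high there too. The other 3 copies were not matched by their genes. Gm29216 was at 18.0 times while mt-Co1 was at 1.01 times, Gm28438 at 16.7 times while mt-Nd3 was at 1.27 times, and Gm28439 at 16.9 times while mt-Nd4 was at 0.625 times. The more distant copies on chromosome 2 did not share this: Gm13341, which matches mt-Co2, was at 0.343 times and Gm13339, which matches mt-Nd2, at 0.404 times, with Gm13340, which matches mt-Co1, at 2.64 times.

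Within a library, mt-Co2, mt-Atp6 and mt-Co3 and their chromosome 1 copies had similar levels. Gm28661 was at 61.4, 89.4 and 17.7 FPKM in PV and at 10.9, 10.6 and 219 FPKM in Drd2, which is 1.28 to 1.96 times mt-Co2 in the same library. Gm10925 was at 57.6, 330.4 and 27.0 FPKM in PV and at 10.1, 11.7 and 242 FPKM in Drd2, or 1.41 to 2.18 times mt-Atp6. Gm28437 was at 28.1, 60.2 and 11.1 FPKM in PV and at 7.65, 10.8 and 192 FPKM in Drd2, or 0.871 to 1.06 times mt-Co3. mt-Nd3 departed from this, with Gm28438 at 0.0233 to 0.335 times its level. Without Drd2 replicate 3 the log2 fold of mt-Co2 was 1.95, that of mt-Atp6 2.34, that of mt-Atp8 2.14, that of mt-Co3 1.64 and that of mt-Nd4l 1.32.

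**Figure D2:**
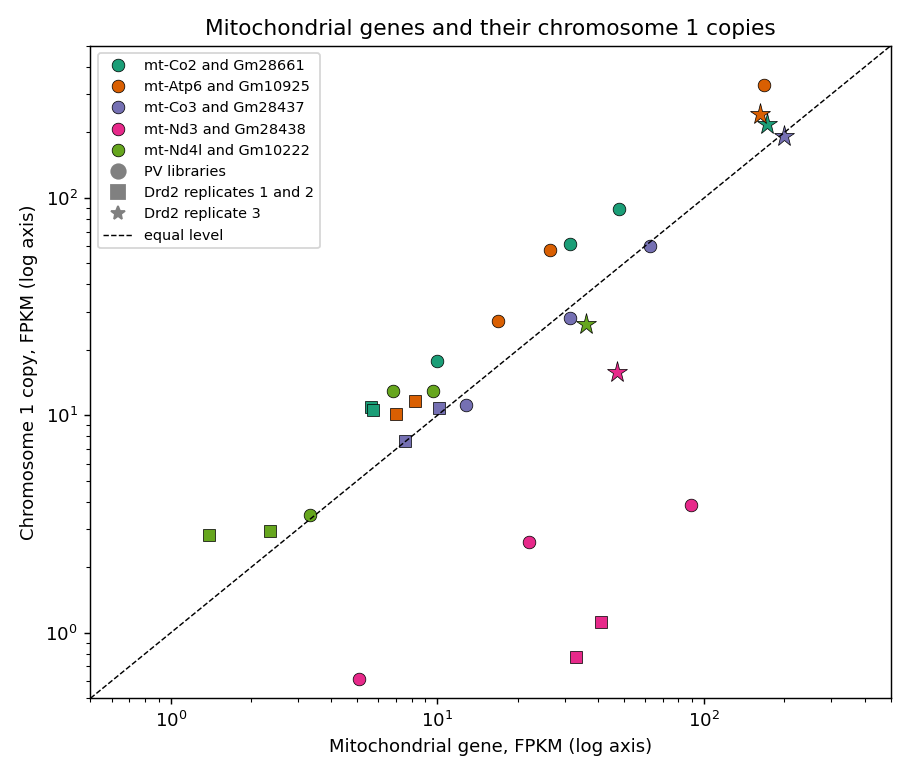
FPKM of 5 mitochondrial genes (horizontal, log axis) and of their chromosome 1 copies (vertical, log axis), with circles for PV libraries, squares for Drd2 replicates 1 and 2, and stars for Drd2 replicate 3; the dashed line marks equal levels. For mt-Co2, mt-Atp6, mt-Co3 and mt-Nd4l the points follow the line, with copies at 0.733 to 2.18 times the gene, while mt-Nd3 lies well below it.

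The transfer RNAs, which carry amino acids to the mitochondrial ribosome, are 59 to 75 bases long and carry no poly(A) tail when mature, so mRNA libraries are not designed to measure them. Of 22, 14 averaged at least 1 FPKM. For mt-Tw, mt-Ty, mt-Td, mt-Tk and mt-Tg, 0 reads were recovered in any library, which allows up to 3 reads, or 1.27 to 1.94 FPKM, per gene and library for counting error alone. mt-Tq, the glutamine tRNA (chrM:3772-3842, minus strand), was at 932, 2342 and 611 FPKM in PV and at 139.8, 113.6 and 8.86 FPKM in Drd2. mt-Tp, the proline tRNA (chrM:15356-15422, minus strand), was at 888, 1619 and 716 FPKM in PV and at 193, 162 and 55.1 FPKM in Drd2. These were the most abundant tRNA genes, with no overlap between the groups, and their sequences, read on the minus strand, are given because they hold most of the tRNA reads.
mt-Tq: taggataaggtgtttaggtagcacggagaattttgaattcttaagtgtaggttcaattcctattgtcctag
mt-Tp: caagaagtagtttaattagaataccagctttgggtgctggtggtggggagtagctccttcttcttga

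The log2 fold of mt-Tq was 4.35 ± 0.94 (SE; limma adjusted p = 0.0947), the highest of the 29 tested members, and that of mt-Tp was 3.06 ± 0.53 (SE; limma adjusted p = 0.0501). The next by level were mt-Te, mt-Tm, mt-Ta and mt-Tc, with means over the 6 libraries of 36.1, 30.5, 19.2 and 16.8 FPKM. Of these, mt-Tc, the cysteine tRNA, did not overlap between the groups (45.7, 37.2 and 8.02 FPKM in PV and 4.94, 3.03 and 1.91 FPKM in Drd2). Its log2 fold was 2.62 ± 0.73 (SE; limma adjusted p = 0.179). The groups overlapped for mt-Te, mt-Tm and mt-Ta.

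Most reads of tRNA genes were assigned to minus-strand members. The 8 minus-strand tRNA genes, which are transcribed with mt-Nd6, held 4057, 7893 and 2658 recovered reads in PV and 852, 676 and 114 in Drd2. The 14 plus-strand tRNA genes held 238, 357 and 134 reads in PV and 118, 85 and 4 in Drd2. mt-Tq and mt-Tp made up most of the minus-strand reads, while mt-Tn, mt-Ty and mt-Ts1, also on the minus strand, had at most 2 reads in all libraries together. The counting is not stated to use strand, so reads from opposite strands cannot be told apart. mt-Tq shares 3 bases with mt-Ti, for which 15, 2 and 8 reads were recovered in PV and 0 in every Drd2 library.

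Counted together, none of the 29 tested members passed the threshold in limma, where 0.261% of all tested genes passed in either direction and 0.0436% with PV higher. At an unadjusted p under 0.05, 18 of the 29 members were higher in PV, against 3.02% of all tested genes, and 15 had every PV library above every Drd2 library, against 5.83% of all tested genes. A fold above 0 was found in 28 of 29 members and in 38.4% of all tested genes. The median log2 fold of the members was 2.02, which is 2.30 above the median of all tested genes of -0.28. By class, the median was 2.91 for the 2 rRNAs, 2.22 for the 7 protein-coding genes outside the stretch from mt-Co2 to mt-Nd4l, 0.29 for the 6 within it and 2.07 for the 14 tested tRNAs. The other 8 members, all tRNAs, did not have 1 FPKM in 3 libraries and were not tested. A gene could enter the test through PV alone, as mt-Ti did, which was at 0 in every Drd2 library. Its fold above 0 and its lack of overlap were thus fixed by the filter. mt-Tr, mt-Ts2, mt-Tl1 and mt-Tl2 reached 1 FPKM in only 1 Drd2 library each, so they also passed largely on their PV values. The counts of members and the tRNA median include these genes. With limma voom on the recovered reads, mt-Rnr2 and mt-Nd2 passed (adjusted p = 0.0328 and 0.0342), where 0.192% of all genes passed. Fewer members had an unadjusted p under 0.05 with voom than in the main fit, 11 against 18. The share of all genes at that unadjusted cut with voom is not given. Without PV replicate 8, 4 members passed in limma (mt-Rnr1, mt-Rnr2, mt-Nd2 and mt-Nd6) among 20 genes in all, and with a pseudocount of 5 FPKM these and mt-Tp did, among 68.

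**Figure D3:**
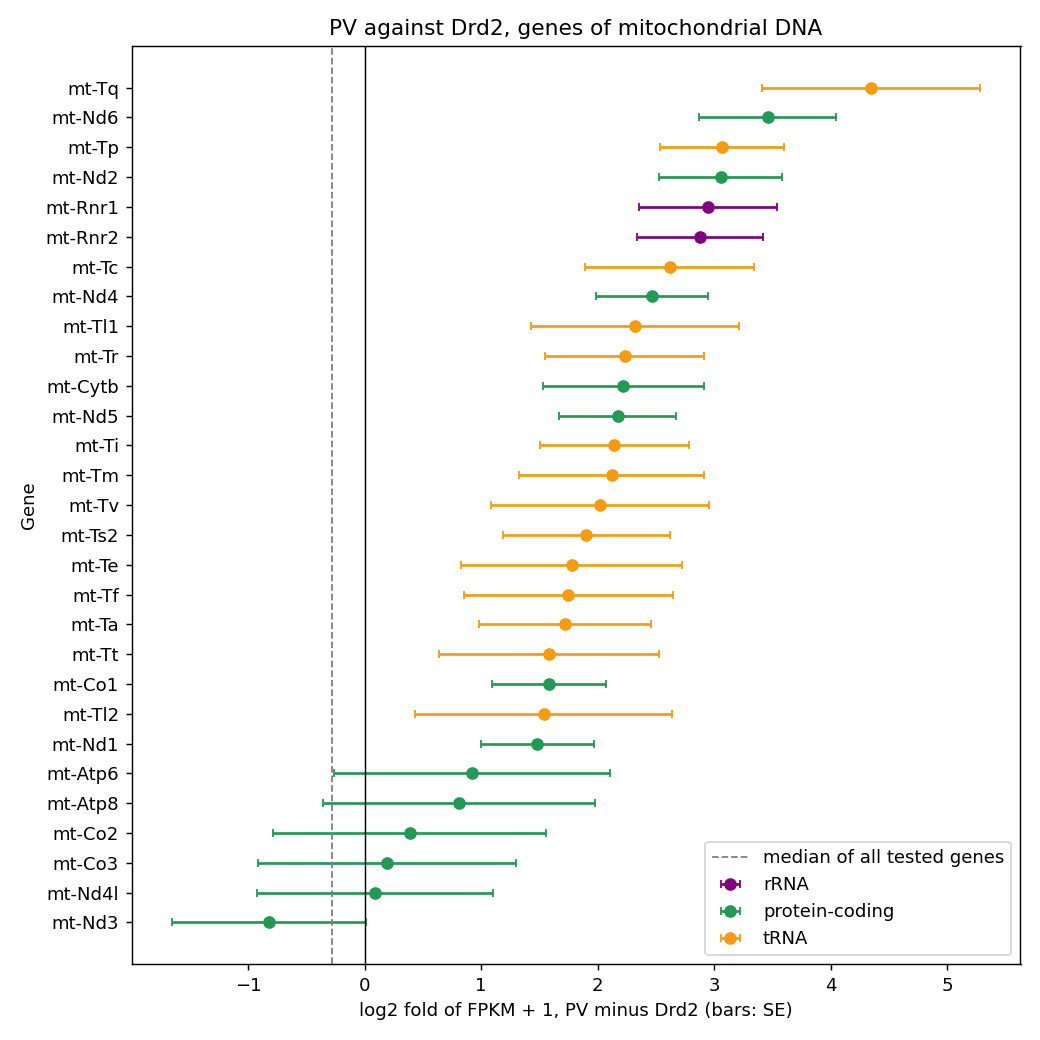
log2 fold of FPKM + 1, PV minus Drd2, with SE from limma, for the 29 tested members, ordered by fold and coloured by class; the dashed line marks the median of all tested genes at -0.28. The 9 rRNA and protein-coding genes outside the stretch from mt-Co2 to mt-Nd4l and the 14 tRNAs lie at 1.48 to 4.35, and the 6 genes from mt-Co2 to mt-Nd4l lie at -0.82 to 0.92 with wide errors.

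The members' summed level separated the groups as well. They held 23.0%, 31.3% and 9.62% of the FPKM total in PV and 3.74%, 5.20% and 3.76% in Drd2. The group means (± SD, n = 3 each) were 21.3% ± 10.9 for PV against 4.23% ± 0.839 for Drd2. The lowest PV library was above the highest Drd2 library, and the spread was wider within PV. Per gene class, rRNA held 12.5%, 13.4% and 4.28% in PV and 1.35%, 1.75% and 1.06% in Drd2. The protein-coding members held 9.95%, 16.9% and 4.95% in PV and 2.28%, 3.35% and 2.67% in Drd2. tRNA genes held 0.389% to 0.960% in PV and 0.0206% to 0.115% in Drd2. As a share of the library's denominator, the members' recovered reads made up 11.1%, 17.2% and 4.38% in PV and 1.66%, 2.24% and 1.64% in Drd2, and the exact 95% Clopper-Pearson intervals were 0.00862 to 0.0281 percentage points wide. Such intervals cover counting error only, as PCR copies of 1 molecule were counted with no identifier to merge them.

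**Figure D4:**
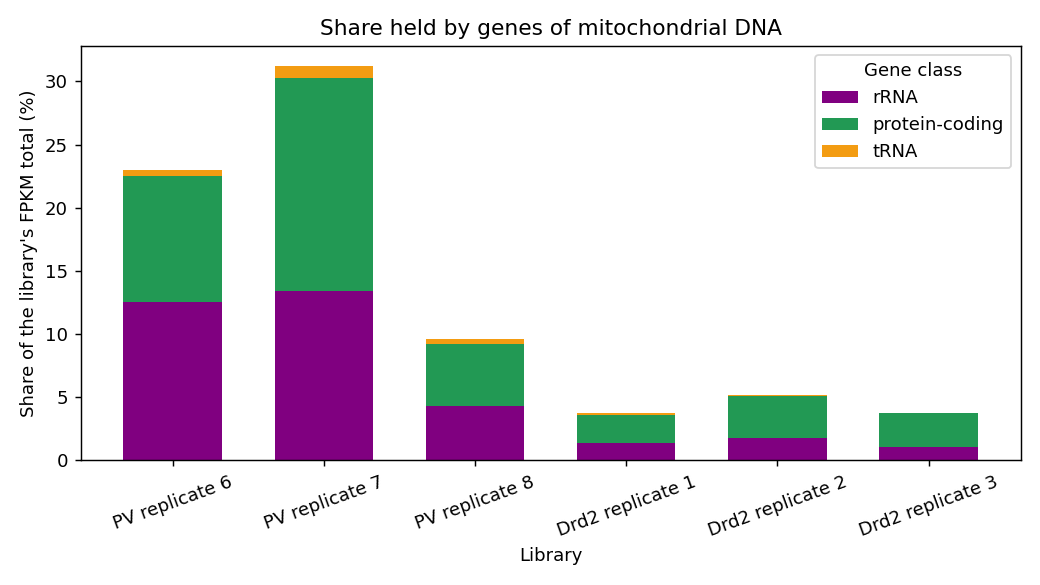
Share of each library's FPKM total held by rRNA, protein-coding and tRNA genes of mitochondrial DNA, stacked by class, 1 bar per library. The bars reach 9.62% to 31.3% in PV and 3.74% to 5.20% in Drd2, and tRNA forms a thin top layer of at most 0.960%.

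The size of the difference between the groups varied from member to member. Whether it went beyond a single common factor was not tested over the members as a set. Over the 9 rRNA and protein-coding genes outside the stretch from mt-Co2 to mt-Nd4l, the ratio of the PV mean to the Drd2 mean ran from 3.03 for mt-Nd1 and 3.37 for mt-Co1 to 8.80 for mt-Nd2 and 11.4 for mt-Nd6. Ratios within a library do not depend on how the library is scaled. mt-Nd6 and mt-Nd5 are neighbours on opposite strands whose ends overlap by 14 bases. Their last 30 bases are given, with the overlap in capitals, mt-Nd5 at chrM:13536-13565 on the plus strand and mt-Nd6 at chrM:13552-13581 on the minus strand.
mt-Nd5: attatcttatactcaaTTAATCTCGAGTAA
mt-Nd6: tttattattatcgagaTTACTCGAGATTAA

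The level of mt-Nd6 was 1.41, 1.11 and 1.10 times that of mt-Nd5 in PV and 0.702, 0.573 and 0.293 times in Drd2. The level credited to mt-Nd6 was thus above that of mt-Nd5 in every PV library and below it in every Drd2 library. As the counting is not stated to use strand, reads from opposite strands cannot be told apart in this ratio. The mean log2 ratio was 0.26 ± 0.20 in PV and -1.03 ± 0.66 in the Drd2 group (SD, n = 3 each), so PV was higher by 1.29 (2-sided exact permutation p = 0.1, the smallest that 3 against 3 can give, so the test cannot pass 0.05). The ratio of mt-Rnr2 to mt-Rnr1 was 1.59, 1.86 and 2.09 in PV and 2.06, 1.58 and 2.22 in Drd2. These overlapped, with a difference in mean log2 ratio of -0.07 (2-sided exact permutation p = 0.8). Summed, the rRNAs were at 1.27, 0.798 and 0.866 times the 7 protein-coding genes outside the stretch from mt-Co2 to mt-Nd4l in PV and at 0.596, 0.525 and 0.428 times in Drd2, with no overlap. Across the 15 rRNA and protein-coding members, Spearman's rho was 0.929 to 0.971 within PV, 0.932 to 0.989 within Drd2 and 0.882 to 0.964 between the groups. The genes share libraries and lengths and are not independent replicates. Levels in the stretch from mt-Co2 to mt-Nd4l were mostly far below the rest, which raises rho. Outside the stretch the order shifted. mt-Rnr1 ranked 2, 3 and 2 in PV and 5 in each Drd2 library, and mt-Nd1 ranked 3, 5 and 3 in PV and 2, 1 and 1 in Drd2.

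**Figure D5:**
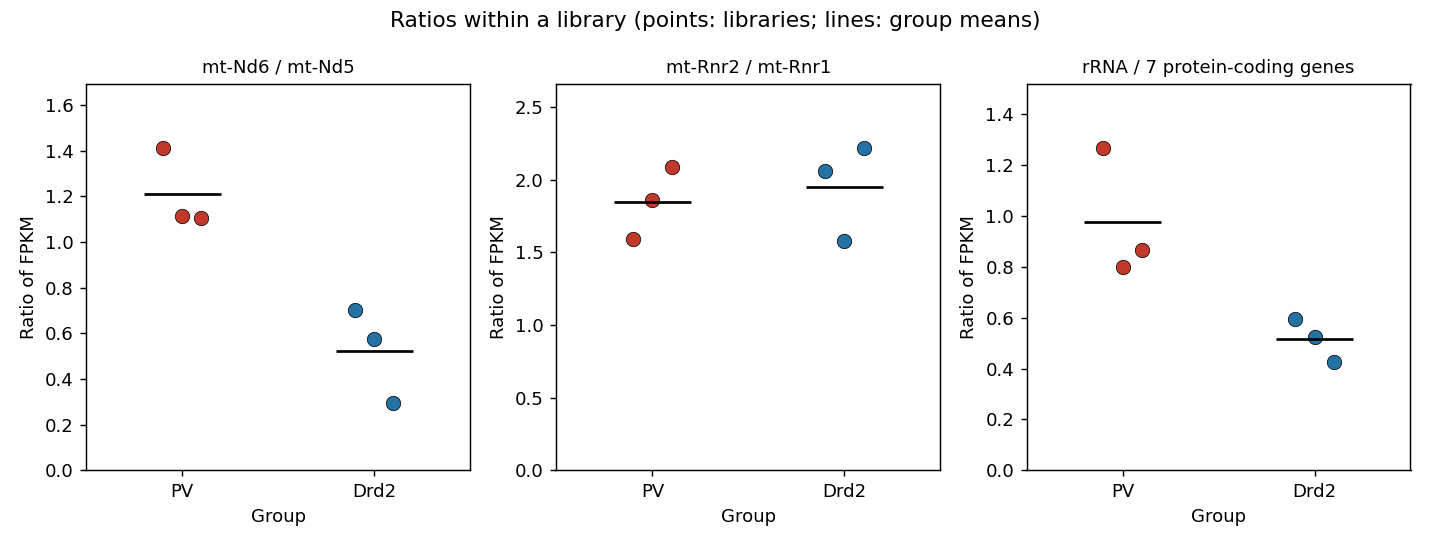
Ratios of FPKM within a library for mt-Nd6 to mt-Nd5, mt-Rnr2 to mt-Rnr1, and the summed rRNAs to the 7 protein-coding genes outside the stretch from mt-Co2 to mt-Nd4l; points are libraries and lines are group means. The first and last ratio separate the groups, and the ratio of mt-Rnr2 to mt-Rnr1 overlaps, at 1.59 to 2.09 in PV and 1.58 to 2.22 in Drd2.

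The nuclear partners of these genes were taken from lists of subunits and of the machinery of mitochondrial gene expression. Of 69 nuclear subunits of complexes I, III, IV and V, all of them tested, none passed the threshold in limma, where 0.261% of all tested genes passed, and 17 had an unadjusted p under 0.05 in either direction, against 12.8% of all tested genes. A fold above 0 was found in 55, against 38.4% of all tested genes, and the median was 0.69, against -0.28 over all. Their summed level was 20173, 37819 and 31744 FPKM in PV and 20971, 15854 and 16431 FPKM in Drd2. In PV replicate 6 it lay within the Drd2 range, whereas the members of mitochondrial DNA were far above it there. Atp5g1, a subunit of the ATP synthase ring, was at 129, 224 and 266 FPKM in PV and at 79.7, 68.1 and 77.5 FPKM in Drd2. Ndufc1, an accessory subunit of complex I, was at 150.05, 666 and 355 FPKM in PV and at 115, 87.3 and 82.5 FPKM in Drd2. Uqcr10, a small subunit of complex III, was at 733, 1859 and 1259 FPKM in PV and at 518, 484 and 385 FPKM in Drd2. These 3 genes were named for having the lowest p of the 69. That the groups did not overlap in them follows largely from this choice. Over all tested genes, 5.83% had every PV library above every Drd2 library. The limma adjusted p was 0.182 for Atp5g1, 0.192 for Ndufc1 and 0.203 for Uqcr10.

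Of 36 genes of mitochondrial gene expression (transcription, replication and RNA processing), 30 were tested, none passed in limma (0.261% of all tested genes did), and 5 had an unadjusted p under 0.05, near the 12.8% of all tested genes. A fold above 0 was found in 10, near the 38.4% of all tested genes, with a median of -0.28, equal to that of all tested genes. Tfb1m, a methyltransferase of the small rRNA, was listed at 0 in each PV library and at 1.72, 7.87 and 1.22 FPKM in Drd2 (limma adjusted p = 0.244). Mgme1, an exonuclease of mitochondrial DNA maintenance, was at 2.32, 0 and 0.0421 FPKM in PV and at 3.37, 8.15 and 6.20 FPKM in Drd2 (limma adjusted p = 0.254). Polg, the catalytic subunit of the mitochondrial DNA polymerase, was at 6.47, 3.28 and 4.74 FPKM in PV and at 0.530, 0.992 and 1.12 FPKM in Drd2 (limma adjusted p = 0.320). Fastkd3, which belongs to a family of mitochondrial RNA-binding proteins, was at 4.87, 19.96 and 7.05 FPKM in PV and at 2.21, 0.691 and 2.75 FPKM in Drd2 (limma adjusted p = 0.331).

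Markers of other cells moved with the groups in part. The 7 blood markers in the table had summed levels of 3002, 3204 and 743 FPKM in PV and of 0.336, 12.1 and 0 FPKM in Drd2. Of these markers 3 were tested, all of them globins that reached 1 FPKM in only 1 Drd2 library. They thus entered the test through PV, where they were high, and the other blood markers were not tested. All 3 passed the threshold in limma with PV higher, where 5 of all tested genes (0.0436%) did. The direction of this count follows largely from the filter. Slc4a1, an anion exchanger of red cells, was at 0 in all libraries, and Hba-a1, an alpha-globin, was at 1206, 1277 and 467 FPKM in PV and at 0.292, 2.42 and 0 FPKM in Drd2. The PV libraries took the same order in this sum as in the share of mitochondrial genes, with PV replicate 7 first and PV replicate 8 last, and its part in the result was not tested. The 16 microglial markers summed to 571 to 2115 FPKM in PV and to 24.1, 148 and 4626 FPKM in Drd2, highest in Drd2 replicate 3. By gene, 14 of the 15 tested had a fold above 0, against 38.4% of all tested genes, with a median log2 fold of 1.87. The mitochondrial share in Drd2 replicate 3 was 3.76%, and a part of microglial RNA in the result was not tested. The 15 oligodendrocyte markers summed to 113 to 487 FPKM in PV and 121 to 2098 FPKM in Drd2. All 15 were tested, and 1 had a fold above 0, against 38.4% of all tested genes, with a median log2 fold of -1.33. A part of oligodendrocyte RNA in the result was not tested. The 13 astrocyte markers summed to 599 to 754 FPKM in PV and 180.2 to 667 FPKM in Drd2. Of the 9 tested, 5 had a fold above 0, with a median log2 fold of 0.20. The 10 vascular markers summed to at most 7.08 FPKM in any library, with Cldn5 at 0 in all, and the 7 ependymal markers to at most 10.8 FPKM, with Rax at 0 in all. The 6 neuronal markers summed to 1303 to 1476 FPKM in PV and 993 to 1202 FPKM in Drd2, but went in both directions. A fold above 0 was found in 4 of the 6, against 38.4% of all tested genes, with a median log2 fold of 0.10. Snap25 was at 751, 1109 and 766 FPKM in PV and at 202, 331 and 503 FPKM in Drd2. Tubb3 was at 285, 61.7 and 311 FPKM in PV and at 510, 563 and 428 FPKM in Drd2.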

How the data were processed

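RNA sequencing libraries of 3 PV-positive and 3 Drd2-positive neuron samples were used. The deposited table gives FPKM per gene, made by the authors; the submitters' processing notes list STAR (version not given) and, as builds, hg38, mm10 and GRCh38. The sources used here do not give the quantifier, its strand setting or the annotation. All identifiers are of mouse. Exon lengths, positions and transcript sequences came from GENCODE M21 (mm10), which held 52133 of the 55414 genes and all 37 members. FPKM times length fell on whole multiples of 1 read: 97.9% to 98.8% of values of at most 20 reads lay within 0.01 read of a whole number, which gave the denominators and reads. Nuclear copies were sought with blastn 2.17.0 (at least 95% identity over at least 100 bases) and by shared 50-base stretches on either strand.

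PV and Drd2 were compared on log2(FPKM + 1) in R 4.3.3 with limma 3.58.1 (2-sided, variance trend over mean level) for genes that reached 1 FPKM in 3 or more libraries; the fit was tested on simulated data. Single ratios were compared by an exact permutation test. All rRNA and protein-coding genes, up to 6 tRNA genes by mean level, up to 4 nuclear copies by mean level and up to 3 genes per list by p are named; other genes, Gm28438, Gm13339, Gm13340, Gm13341, Gm4076 and Gm28439 among them, were chosen after their values were seen. Lists name genes found once in the table. The members and lists were chosen with earlier results of these data known. Alternatives were other pseudocounts, filters, scalings, limma voom, no trend and leaving out libraries.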

Additional observations from a re-analysis of the deposited data

How the results depend on the processing

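No paired analysis was possible because the groups share no replicate number. The number of members past the threshold in limma was 0 with all libraries and 5 with a pseudocount of 5 FPKM, 3 with quantile normalization (mt-Nd2, mt-Nd6 and mt-Tp) and 2 with voom, and 0 to 4 when each library was left out. For all genes, 30 passed, and 4 with a pseudocount of 0.1 FPKM, 68 with 5 FPKM and 68 with quantile normalization. With no filter beyond leaving out genes at 0 in every library, 0 passed. In that fit 12 of 32 members had an unadjusted p under 0.05, and the share of all genes at that cut is not given. After rescaling over nuclear protein-coding genes 14 passed, and 46 without the trend. Without PV replicate 7 and Drd2 replicate 3 together 18 passed, and 1 to 56 when each library was left out. The cause of these changes was not tested. The median fold of all genes ran from -0.50 with TPM to 0.05 with quantile normalization.

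The difference in summed share was 17.1 percentage points of FPKM, 9.07 of reads, 28.3 relative to nuclear protein-coding genes, 7.83 for protein-coding members and 8.69 for rRNA, and 12.1 to 22.9 when each library was left out. The log2 difference of the mt-Nd6 to mt-Nd5 ratio stayed between 0.92 and 1.55 when each library was left out, and that of mt-Rnr2 to mt-Rnr1 ran from -0.22 to 0.031. Of 488 refitted folds of the 29 tested members 15 changed sign. Of the 9 rRNA and protein-coding members outside the stretch from mt-Co2 to mt-Nd4l, 1 did in 17 alternatives: mt-Nd1 was at -0.56 with quantile normalization, where the other 8 ran from 0.14 for mt-Co1 to 3.23 for mt-Nd6. mt-Nd4l was at -0.14 with a pseudocount of 5 FPKM and mt-Tt at -0.013 without PV replicate 7 and Drd2 replicate 3 together. When each library was left out, folds ran from -0.40 to 1.95 for mt-Co2, -0.26 to 2.14 for mt-Atp8, -0.053 to 2.34 for mt-Atp6, -0.63 to 1.64 for mt-Co3, -1.80 to 0.15 for mt-Nd3 and -0.65 to 1.32 for mt-Nd4l. For tRNA genes with few reads the count itself limits precision.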

Other observations

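The base composition of mt-Nd6, the one protein-coding gene on the minus strand, stood apart from that of its neighbour. On its own transcript, mt-Nd6 holds 22.2% A, 43.7% T, 28.1% G and 5.97% C, while mt-Nd5, on the plus strand, holds 34.3% A, 28.6% T, 9.98% G and 27.1% C. The rRNAs are richest in A among the members above 1000 FPKM on average, at 37.8% for mt-Rnr1 and 38.2% for mt-Rnr2, and their most A-rich windows of 20 bases hold 15 and 16 A. In mt-Nd6 the most A-rich such window holds 8 A and the longest run of A has 3 bases, against 8 bases in mt-Nd2 and 7 in mt-Rnr2. mt-Tq and mt-Tp, the tRNA genes with the most reads, have runs of at most 2 A. Whether these features bear on capture by the library kit was not tested.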
